A study of Mus musculus with 20 samples.

Results

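O-GlcNAc is 1 sugar unit placed by the enzyme Ogt on serine and threonine of proteins in the nucleus, the cytoplasm and the mitochondria, and that O-GlcNAcase, encoded by Oga, removes. The cycle responds to glucose and to stress, and many proteins of the heart carry the mark, among them enzymes of metabolism and proteins of the contractile apparatus. The results below set the effect of a transgene that acts on this cycle after 24 weeks of induction against its effect after 2 weeks, gene by gene.

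RNA from mouse left ventricle was sequenced in 4 groups of 5 libraries. Control at 2 weeks and Control at 24 weeks were compared with dnOGAh-Tg, mice that carry a dominant-negative O-GlcNAcase transgene, at the same times, which are weeks of doxycycline food. The labels give neither the promoter that drives the transgene, nor the alleles that Control mice carried or whether these ate doxycycline, nor strain and age. They also do not state that each library was a separate animal, so p-values describe only how these libraries spread, and in a piece of ventricle fewer cells of a type and less RNA per cell cannot be told apart.

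The quantity described is a difference between times: the log2 change of dnOGAh-Tg from Control at 24 weeks minus that at 2 weeks, where each change was taken within the table of its own time. A positive difference means that the effect of the transgene was higher at 24 than at 2 weeks, and a negative one that it was lower. It was measured for the 14339 genes, of 20752 listed at either time, that had a normalized count of at least 10 in at least 5 libraries of each table. Changes are on the scale of log2(normalized count + 1), which understates those of low genes. Values are given in the order of replicates 1 to 5.

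Reads per library ranged from 22804712 to 50996272. The 10 ventricular cardiomyocyte markers were abundant in every library, with a summed normalized count of 1435364 to 2716155. The 8 atrial markers, Nppa among them, summed to 11129 to 119590 in dnOGAh-Tg at 2 weeks and 153150 to 313165 at 24 weeks, and to 4178 to 24269.5 in Control. The highest of these Control sums came from Control 2 of 2 weeks, whose Sln, a regulator of the calcium pump that is mostly atrial in mice, stood at 1112 beside 0.908 to 60.1 in the other Control libraries of that time. Oga, against which reads of the transgene may also count, was 11.9, 16.1 and 17.2 times its Control mean in 3 dnOGAh-Tg libraries of 2 weeks and 6.90 to 17.9 times at 24 weeks. In the 2 dnOGAh-Tg libraries of 2 weeks whose titles carry the code F11 it was 2.43 and 1.81 times, so the fit was run with and without them, and a call that rests on 1 of these fits is named as such. No title code occurs at both times. A difference between times can therefore not be told apart from what the codes stand for, or from the age of the mice. A further split at 2 weeks followed the groups in every library but Control 5. The gene model Gm37194 stood at no more than 1.26 counts in Control 1 to 4 and at 96.6 to 217.7 in Control 5 and in all 5 dnOGAh-Tg libraries, and at 24 weeks it was low in the 2 libraries coded F19, at 3.05 and 3.56.

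The effect of the transgene differed between 24 and 2 weeks for 252 genes, which is 1.76% of the genes tested, in limma-trend with Benjamini-Hochberg adjustment over all genes and a threshold of 0.05. Of these, 154 had a higher effect at 24 weeks and 98 a lower one. Without the F11 dnOGAh-Tg libraries 313 genes were called, 2.18% of those tested, 188 higher (1.31%) and 125 lower (0.872%). The 2 fits shared 168 genes, all in the same direction, and all 252 genes of the first fit had the same sign in the second. The difference was at least 1 on the log2 scale for 99 of the higher and 61 of the lower genes with all libraries. When each library was left out in turn, 91 genes stayed called in every fit with all libraries, 51 in every fit without F11 and 36 in both series, 31 of them higher and 5 lower. With the Gm37194 split as a covariate, an alternative added after seeing the data, 51 genes were called. At 2 weeks this split differs from the groups only in Control 5, so that fit can hardly separate it from the transgene there.

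**Figure D1:**
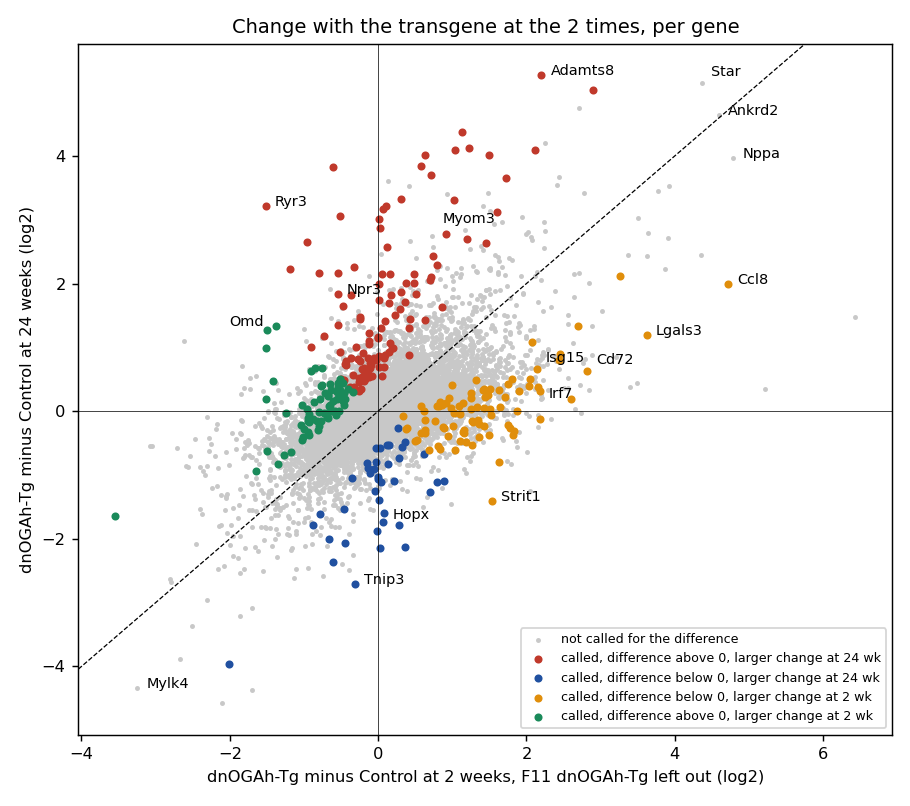
Each point is 1 of the 14339 genes, with the log2 change of dnOGAh-Tg from Control at 2 weeks without the F11 libraries on the horizontal axis and at 24 weeks on the vertical axis, and the dashed line marks equal changes. Coloured points are the 313 genes called for the difference in that fit, with 115 points in red, 39 in blue, 86 in orange and 73 in green, and most genes with a large change at both times, such as Nppa and Ankrd2, lie near the line.

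Most of what separated dnOGAh-Tg from Control at 24 weeks already had the same direction at 2 weeks. Of 14676 genes tested within the 24-week table, limma-trend called 3296, or 22.5%, with 11.3% higher and 11.1% lower. Within the 2-week table no gene of 14584 was called by limma-trend with all 10 libraries, although 3551 had an unadjusted p under 0.05 and DESeq2 called 850, and 4929 genes, or 33.8%, were called without the 2 F11 libraries. Of 1566 genes called higher at 24 weeks and tested at both times, 85.8% had a positive change at 2 weeks without F11. There 707 of them, or 45.1%, were called higher, beside 16.1% of all genes. Their median log2 change was 0.46 at 2 weeks and 0.69 at 24 weeks. Of 1619 genes called lower at 24 weeks, 93.0% had a negative change at 2 weeks without F11. There 967 of them, or 59.7%, were called lower, beside 17.7% of all genes, and the medians were -0.51 and -0.58. Over all genes tested at both times the median change at 2 weeks without F11 was -0.02. The 24-week medians describe genes chosen at that time, so no test of the gap between the medians is given. Of the 1702 genes called at both times, 1674 had the same direction, 21 were lower at 2 weeks and higher at 24 weeks, and 7 were the reverse. Read from the other side, the 2337 genes called higher at 2 weeks had a median of 0.75 then and 0.28 at 24 weeks, and 30.3% of them were called higher at 24 weeks. Across the genes the changes at both times had a Pearson r of 0.53, and 0.58 without F11, a description in which all genes share the same libraries.

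The same genes can be read library by library. The median deviation of the 1566 genes from the Control mean of 2 weeks was 0.46, 0.45 and 0.49 in the 3 dnOGAh-Tg libraries coded F13 and F14. It was 0.00 and 0.07 in the F11 dnOGAh-Tg libraries, and -0.07 to 0.16 in Control, so by this median the F11 libraries lay within Control.

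**Figure D2:**
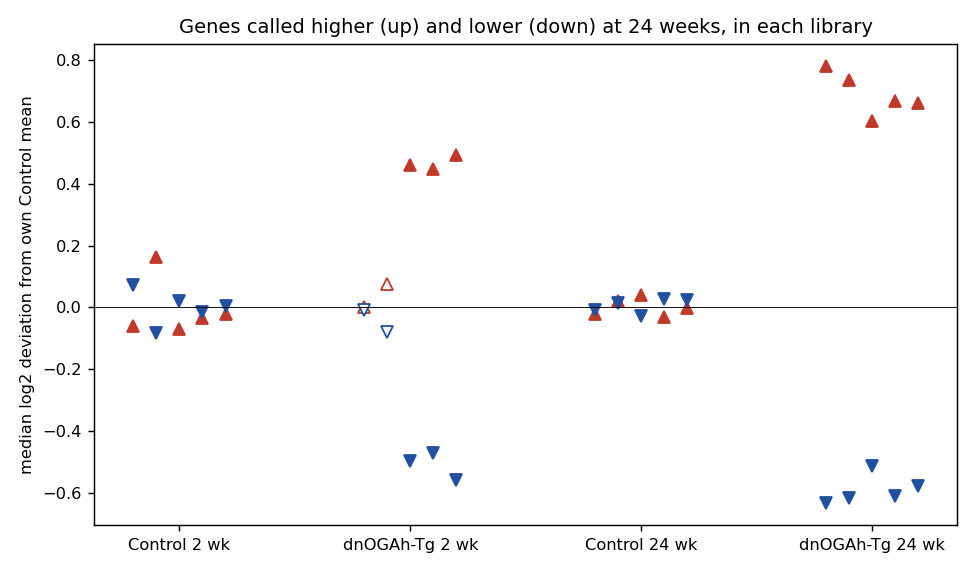
Upward triangles give, for each library, the median log2 deviation from the Control mean of its own time over the 1566 genes called higher at 24 weeks, and downward triangles that over the 1619 called lower. The genes were chosen on the 24-week libraries at the right, and at 2 weeks the 3 filled dnOGAh-Tg libraries lie at 0.45 to 0.49 and -0.56 to -0.47 while the 2 open F11 libraries overlap Control.

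Genes that had large changes of like direction at both times, and were called for the difference in neither fit, included Nppa, Ankrd2 and Star. Nppa, the precursor of atrial natriuretic peptide, had normalized counts of 2500.4, 11414, 2081, 3103 and 3243 in Control at 2 weeks. In dnOGAh-Tg it stood at 9000.0 and 15734 in the F11 libraries and 99561, 116150.0 and 84967 in the other 3. Its counts at 24 weeks were 18468, 18472, 4500.4, 10851 and 19209 in Control and 275958, 306402, 156691, 155300.0 and 147660.0 in dnOGAh-Tg, and the groups did not overlap. Its highest Control value of 2 weeks came from Control 2, the library with the high sum of atrial markers, a sum that includes Nppa itself. Its log2 change was 4.79 at 2 weeks without F11 and 3.97 at 24 weeks, and the difference was -0.82 ± 0.64 (SE, adjusted p = 0.461). Ankrd2, a stretch-responsive protein of the sarcomere and nucleus, changed by 4.59 and 4.64, with a difference of 0.05 ± 0.46 (SE, adjusted p = 0.956). Star, which carries cholesterol into mitochondria, changed by 4.37 and 5.14, and its difference of 0.77 had an adjusted p of 0.306. Rab15, a small GTPase of endosomes, changed by 2.78 and 3.42, Nmrk2, a kinase that makes NAD from nicotinamide riboside, by 3.91 and 2.71, and Mlana, a melanosome protein, by 3.78 and 3.44. In the other direction Mylk4, a kinase of the myosin light chain kinase family, fell from 2516 to 5477 in Control to 364 to 555 at 2 weeks without F11 and from 4411 to 8729 to 199.7 to 378 at 24 weeks. Its difference of -1.08 did not pass the threshold (adjusted p = 0.079). Oga itself changed by 3.92 and 3.53, a difference of -0.39 ± 0.33 (SE, adjusted p = 0.5). A p above the threshold does not show that these changes were equal, and the standard errors of the differences, 0.33 to 0.99 for these genes, leave room for changes of that size. With all libraries the differences were 0.41 for Nppa, 1.97 for Ankrd2, 2.53 for Star, -2.22 for Mylk4 and 0.74 for Oga, with adjusted p-values of 0.875, 0.416, 0.233, 0.102 and 0.658.

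Among the other tested genes that were to be named whatever their values, Acta1 was called with all libraries, as described below. The rest, given here, were called for the difference in neither fit. Nppb, the B-type natriuretic peptide, changed by 2.56 at 2 weeks without F11 and 1.37 at 24 weeks, and both changes passed the threshold. The myosin heavy chain Myh6 fell by 0.72 and 0.88 on the log2 scale, and the calcium pump Atp2a2 fell by 0.97 and 0.94, while the slow myosin Myh7 had changes of -0.31 and -0.67 that passed at neither time. Ppargc1a, a coactivator that drives mitochondrial biogenesis, fell by 0.73 and 0.87, and Cpt1b, which admits fatty acids to mitochondria, by 0.76 and 0.51. Pdk4, a brake on pyruvate oxidation, had -0.87 and -0.87, and neither change passed. Postn, which activated fibroblasts secrete, rose by 1.85 and 1.66. Ogt had -0.36 and -0.01 and the stress hormone gene Gdf15 -0.26 and 1.02, none of which passed.

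Where a group mean reached 50, the most positive differences with all libraries were those of Ryr3, Lrrn1, Gnal, Adamts8, Mlph, Padi2, Dlgap1 and Vgll2, in that order. Ryr3, a calcium release channel of internal stores (chr2:112461700-113047441, minus strand, GRCm39), had normalized counts of 78.6, 71.8, 57.2, 71.7 and 40.4 in Control at 2 weeks, against 77.5 and 72.3 in the F11 dnOGAh-Tg libraries and 20.5, 36.1 and 12.5 in the other 3. In the 24-week table it had 69.2, 103, 54.1, 36.7 and 87.4 in Control and 796, 614, 478, 638 and 622 in dnOGAh-Tg. The 3 libraries of 2 weeks lay below every Control, and at 24 weeks all 5 lay far above. The difference was 4.02 ± 0.54 (SE, adjusted p = 0.000534) with all libraries and 4.73 ± 0.42 (SE, adjusted p = 1.12e-05) without F11. The change at 2 weeks without F11 was -1.52 (adjusted p = 0.0072). That at 24 weeks was 3.22 (adjusted p = 3.12e-06), in the opposite direction.

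Adamts8, a secreted metalloprotease that cuts matrix proteoglycans (chr9:30853858-30875134, plus strand), rose at both times and more at 24 weeks. It had 17.5, 57.9, 15.4, 15.4 and 21.8 in Control and 46.4, 26.1, 106, 90.8 and 122 in dnOGAh-Tg at 2 weeks. After 24 weeks it stood at 25.6, 24.4, 18.7, 27.0 and 19.0 in Control and 865, 1055, 907, 1059.8 and 705 in dnOGAh-Tg, with no overlap. The difference was 3.69 ± 0.51 (SE, adjusted p = 0.000558), and 3.06 ± 0.41 (SE, adjusted p = 0.00128) without F11. Its relative Adamts20 (named after its values were seen) had a difference of 3.28 ± 0.44 (SE, adjusted p = 0.000534), which was 3.06 (adjusted p = 0.00317) without F11.

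Npr3, the receptor that clears natriuretic peptides (chr15:11839982-11907373, minus strand), was also named after its values were seen, since it stayed called in every fit with a library left out. Its counts were 1252, 758, 859.5, 742 and 565 in Control and 878, 731, 470.3, 671 and 539 in dnOGAh-Tg at 2 weeks, where the groups overlapped. At 24 weeks they were 1133, 911, 971, 744 and 937 and 4333, 2355, 3501, 3930.0 and 2856, and every dnOGAh-Tg library lay above every Control. The difference was 2.16 ± 0.28 (SE, adjusted p = 0.000534), and 2.37 ± 0.29 (SE, adjusted p = 0.000338) without F11. Nppa and Nppb, which encode ligands of this receptor, had by contrast risen at both times.

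**Figure D3:**
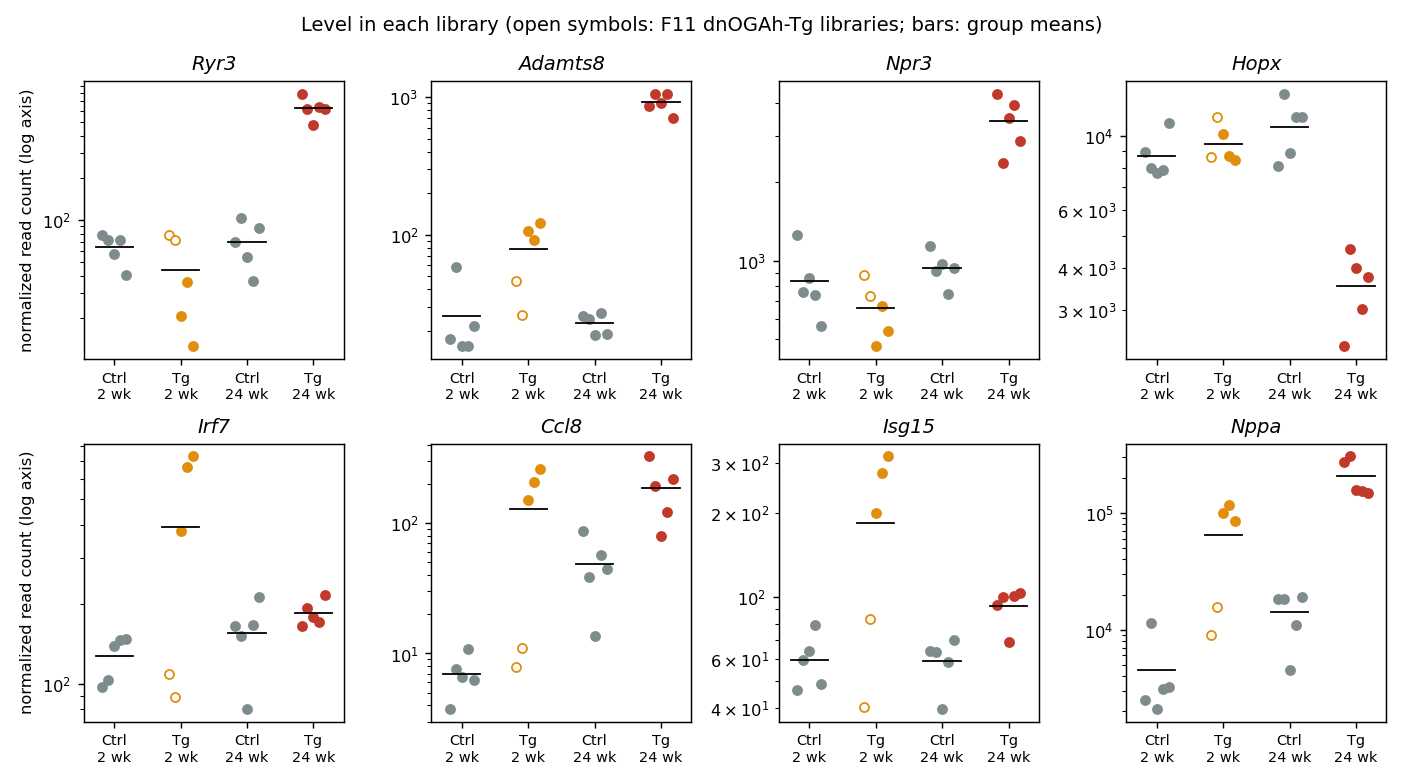
Normalized read counts of 8 genes on log axes, with 1 point per library, the group mean as a bar and the F11 dnOGAh-Tg libraries of 2 weeks as open symbols. At 24 weeks Ryr3, Adamts8 and Npr3 stand above and Hopx below Control in dnOGAh-Tg. At 2 weeks Irf7, Ccl8 and Isg15 stand above Control in the 3 filled dnOGAh-Tg libraries, and Nppa does so in filled libraries at both times.

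Among the further genes that rose at 24 weeks, Syn2, a synapsin that coats synaptic vesicles (named after its values were seen), had 185, 244, 132, 117 and 184 in Control and 206, 231, 201, 299.7 and 148 in dnOGAh-Tg at 2 weeks. By 24 weeks it had 164, 251, 281, 149 and 181 and 2139, 1673, 2215, 2009 and 1976, without overlap, and a difference of 2.98 ± 0.29 (SE, adjusted p = 2.07e-05). Gnal, the alpha subunit of an olfactory G protein, stood at 3.24 to 22.4 in Control and 109 to 196 in dnOGAh-Tg at 24 weeks, and its difference was 3.87 ± 0.63 (SE, adjusted p = 0.0035). Lrrn1, a leucine-rich repeat membrane protein, had a difference of 4.02 ± 0.81 (SE, adjusted p = 0.0152), Dlgap1, a scaffold of the postsynaptic density, one of 3.31 ± 0.63 (SE, adjusted p = 0.0114), and Mlph, which links melanosomes to a myosin motor, one of 3.54 ± 0.61 (SE, adjusted p = 0.00453). Vgll2, a cofactor of TEAD factors in skeletal muscle, went from 113 to 294 in Control to 2173 to 4450.4 in dnOGAh-Tg at 24 weeks and had a difference of 3.31 ± 0.61 (SE, adjusted p = 0.00913). Padi2, which turns arginine of proteins into citrulline, had a difference of 3.41 ± 0.72 (SE, adjusted p = 0.0201), but 1 Control library of 24 weeks stood at 235, above the lowest dnOGAh-Tg library. Chd5, a chromatin remodeller, had a difference of 3.43 ± 0.77 (SE, adjusted p = 0.0293) without F11. Amot, a scaffold of cell junctions that binds YAP, and Nox4, an NADPH oxidase that makes hydrogen peroxide, were named after their values were seen and had differences of 2.47 ± 0.33 (SE, adjusted p = 0.000534) and 2.33 ± 0.34 (SE, adjusted p = 0.00141). Without F11 the differences were 3.00 for Syn2, 3.27 for Gnal, 4.44 for Lrrn1, 3.61 for Dlgap1, 3.10 for Mlph, 3.39 for Vgll2, 3.57 for Padi2, 2.72 for Amot and 2.18 for Nox4, and each passed the threshold. Chd5 had 2.93 (adjusted p = 0.0452) with all libraries and stayed called in 6 of 20 fits with 1 left out. In the deposited coordinates Ryr3, Gnal, Padi2, Syn2, Npr3 and Hopx, among other genes named here, overlap listed genes on the opposite strand. Gnal also overlaps Chmp1b on the same strand. Since the sources used here give no strand setting, reads of such pairs cannot be told apart.

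Among the genes whose effect was lower at 24 weeks, Hopx, a homeodomain-only protein that binds no DNA (chr5:77234835-77262968, minus strand, named after its values were seen), had 8928, 7989, 7733, 7897 and 10902 in Control and 8659.5, 11421, 10149.8, 8680.0 and 8459.9 in dnOGAh-Tg at 2 weeks. Its counts at 24 weeks were 8126, 13398, 8858, 11424 and 11386 in Control and 2329, 4582, 4018, 3013 and 3772 in dnOGAh-Tg. The groups overlapped at 2 weeks and were apart at 24 weeks, and the difference was -1.73 ± 0.23 (SE, adjusted p = 0.000534), close to the -1.67 without F11. Tnip3, an inhibitor of inflammatory signalling to NF-kappa-B, had 26.2, 20.1, 28.6, 29.1 and 41.4 in Control and 29.4, 25.1, 35.5, 17.6 and 18.2 in dnOGAh-Tg at 2 weeks, and 79.9, 82.4, 46.8, 95.0 and 89.9 and 5.49, 14.2, 15.0, 8.74 and 14.1 at 24 weeks. Its difference was -2.50 ± 0.40 (SE, adjusted p = 0.0028), and all 5 dnOGAh-Tg libraries of 24 weeks lay below Control. Without F11 it was -2.39 (adjusted p = 0.0112).

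The most negative differences with all libraries were those of Tmprss13, Cyp2b10, Strit1, Tnip3, Eprn, Mrpl23, Ptchd3 and Npy4r, in that order. Tmprss13, a membrane serine protease, stood at 36.4 to 303 in Control and 2.67 to 12.8 in dnOGAh-Tg at 24 weeks, with a difference of -3.16 ± 0.80 (SE, adjusted p = 0.0458). Cyp2b10, a drug-metabolizing cytochrome, had 265 to 1413 and 16.9 to 58.4, with a difference of -3.10 ± 0.75 (SE, adjusted p = 0.0365), and Npy4r, a receptor of pancreatic polypeptide, 61.4 to 156 and 8.46 to 31.2, with one of -2.11 ± 0.48 (SE, adjusted p = 0.0282). Without F11 these 3 missed the threshold, with adjusted p-values of 0.0869, 0.0747 and 0.0608. Control 3 of 24 weeks had the lowest Control value of each, at 36.4, 265 and 61.4. At 2 weeks the groups overlapped for each gene, with means of 22.6 in Control and 11.6 in dnOGAh-Tg for Tmprss13. They were 88.9 and 39.9 for Cyp2b10 and 29.5 and 21.4 for Npy4r. The scale understates changes at low counts. Means at 24 weeks were 207, 869 and 116 in Control and 7.97, 35.2 and 18.9 in dnOGAh-Tg. Since the tables were normalized separately, whether Control or dnOGAh-Tg moved between the times was not tested. With all libraries and 1 left out in turn, Tmprss13 stayed called in 4 of 20 fits, Cyp2b10 in 5 and Npy4r in 13. Eprn, a long noncoding RNA, was lower at both times without F11 and more so at 24 weeks, with a difference of -2.43 ± 0.49 (SE, adjusted p = 0.0152). Ptchd3, a patched-domain protein, had a difference of -2.25 ± 0.46 (SE, adjusted p = 0.0157). Both stayed called without F11, at -1.96 and -2.17.

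Strit1, a micropeptide that activates the cardiac calcium pump, had a higher mean in dnOGAh-Tg than in Control at 2 weeks and a lower one at 24 weeks. The groups overlapped at both times. It had 223, 256, 185, 246 and 836 in Control and 700.2, 777, 1068, 634 and 904 in dnOGAh-Tg at 2 weeks, and 626, 1947, 689, 849 and 818 and 244, 916, 447, 200.4 and 222 at 24 weeks. Control 5 of 2 weeks lay among the dnOGAh-Tg libraries of that time. The difference was -2.85 ± 0.57 (SE, adjusted p = 0.0152). Mrpl23, of the mitochondrial ribosome, had the same layout, with 43.7, 39.0, 51.7, 69.0 and 228 in Control and 190.0, 189, 237, 227 and 174 in dnOGAh-Tg at 2 weeks, and a difference of -2.37 ± 0.49 (SE, adjusted p = 0.0177) that was -2.19 with an adjusted p of 0.12 once the Gm37194 split was a covariate. Without F11 the values were -2.93 for Strit1 and -2.43 for Mrpl23, both called. For both genes Control 5 of 2 weeks lay on the side of dnOGAh-Tg, as it did for Gm37194.

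That layout at 2 weeks went with transcript length. The median change at 2 weeks without F11 was 0.61 over the 408 genes whose longest transcript had up to 700 bases and -0.40 over the 2000 genes above 6000 bases, whereas at 24 weeks the medians were -0.04 and -0.10. Control 5 of 2 weeks deviated from the Control mean by 0.50 and -0.30 in the same classes, although it is labelled Control. Of the 30 genes called lower in the difference with the larger change at 2 weeks, 17 had transcripts under 1000 bases, beside 6.31% of all genes. After removal of a smooth trend over length and GC content, added after seeing the data, 477 genes were called, 249 higher and 228 lower.

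**Figure D4:**
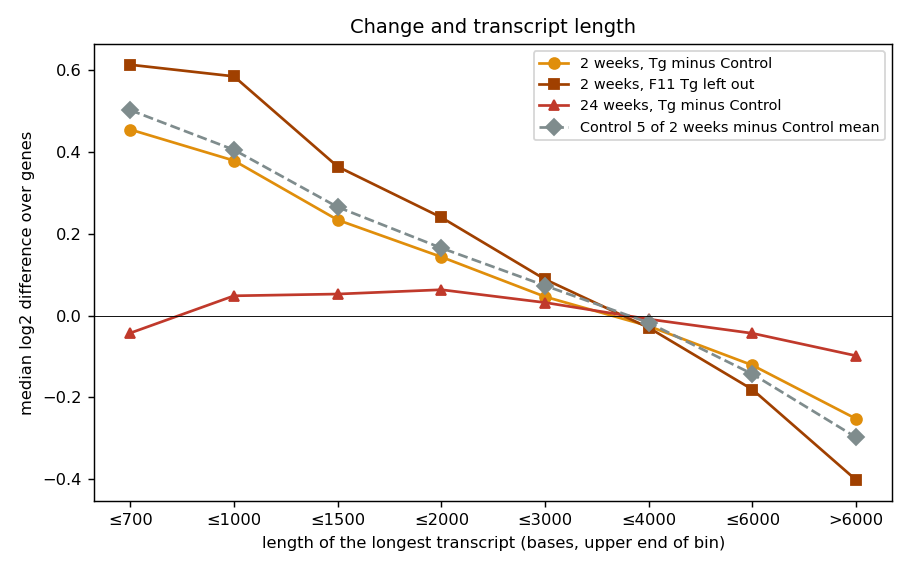
Median log2 difference over genes in 8 classes of transcript length, for dnOGAh-Tg minus Control at 2 weeks with and without the F11 libraries, at 24 weeks, and for Control 5 of 2 weeks minus the Control mean. The curves of 2 weeks and of Control 5 fall from 0.46, 0.61 and 0.50 for the shortest to -0.25, -0.40 and -0.30 for the longest transcripts, and that of 24 weeks stays between -0.10 and 0.06.

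Of the fetal and hypertrophy genes, 4 were called for the difference. Among 23 tested members 3 had a higher and 1 a lower difference, beside 1.07% and 0.683% of all genes, and the median change of the list was 0.44 at 2 weeks without F11 and 1.14 at 24 weeks, beside -0.02 and -0.01 over all genes. Acta1, skeletal alpha-actin that the fetal heart also makes, had 32909, 32629, 20795, 19819 and 13634 in Control and 31569, 43684, 73495, 39332 and 46216 in dnOGAh-Tg at 2 weeks. In the 24-week table it had 12218, 49233, 30996, 16004 and 28053 and 207471, 226348, 143969, 149772 and 155536, without overlap, and its difference of 1.85 ± 0.44 (SE, adjusted p = 0.0347) became 1.67 ± 0.48 (SE, adjusted p = 0.0653) without F11. Hbegf, a growth factor that activates the EGF receptor, had 621, 767, 775, 508 and 733 in Control and 2089, 2040.0, 1594, 2172 and 1374 in dnOGAh-Tg at 24 weeks, and a difference of 1.18 ± 0.21 (SE, adjusted p = 0.00772). Xirp2, an actin-binding protein of the intercalated disc, had 34551, 25356, 30368, 29171 and 27030.0 in dnOGAh-Tg at 2 weeks, within the Control range of 21742 to 36941, and 58611, 46235, 60569.7, 69426 and 47673 at 24 weeks, above the Control range of 20298 to 32598. Its difference was 1.13 ± 0.22 (SE, adjusted p = 0.0129). Myh7b, a myosin heavy chain whose gene also carries a microRNA, was the member that fell further, from 1867 to 2606 in Control to 352 to 896 in dnOGAh-Tg at 24 weeks, with a difference of -1.56 ± 0.28 (SE, adjusted p = 0.0073). Without F11 these became 1.00 for Hbegf, 1.14 for Xirp2 and -1.34 for Myh7b, all called. The call of Acta1 stayed in 7 of 20 fits with 1 library left out.

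In the sarcomere list, 27 genes tested, 1 had a higher and 1 a lower difference, beside 1.07% and 0.683% of all genes. Myom3, an M-band protein of slow and embryonic muscle, had 165, 145, 185, 162 and 159 in Control and 172, 109, 295, 292 and 339 in dnOGAh-Tg at 2 weeks. After 24 weeks it stood at 107, 82.4, 205, 95.0 and 129 and 875, 765, 1066, 1011 and 490.1, and the difference was 2.33 ± 0.39 (SE, adjusted p = 0.00398). Tnnc1, cardiac troponin C with a short transcript, had -1.19 ± 0.28 (SE, adjusted p = 0.0316), and its Control 5 value of 105283 at 2 weeks lay in the dnOGAh-Tg range. It stayed called in 7 of 20 fits with 1 library left out. Both genes were also called without F11, at 1.86 and -1.29.

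The integrated stress response raises genes of amino acid supply through the transcription factor ATF4. Of 28 tested members of that list 4 had a higher difference, beside 1.07% of all genes, and none a lower one. They were Slc7a5, Mthfd2, Asns and Aldh18a1, of which 3 were called without F11, and the median change was 0.35 at 2 weeks without F11 and 0.66 at 24 weeks. Slc7a5, a transporter of large neutral amino acids, had 227, 303, 217, 208 and 204 in Control and 306, 320.1, 419.9, 428 and 407 in dnOGAh-Tg at 2 weeks, and 259, 217, 255, 255 and 220.3 and 954, 698, 717, 750.5 and 659 at 24 weeks. The groups were apart at both times, and the difference was 0.94 ± 0.19 (SE, adjusted p = 0.0137). Mthfd2, a mitochondrial enzyme of one-carbon metabolism, had 126, 141, 68.1, 79.9 and 80.8 in Control and 155, 255, 309.8, 248 and 220.0 in dnOGAh-Tg at 2 weeks. By 24 weeks it had 166, 85.5, 71.8, 253 and 68.4 and 1457, 1229, 913, 982 and 777, again without overlap. Its difference was 1.94 ± 0.43 (SE, adjusted p = 0.026), and 1.79 ± 0.47 (SE, adjusted p = 0.0504) without F11. Asns, which makes asparagine, had 92.2, 125, 105, 67.4 and 78.6 in dnOGAh-Tg and 68.7, 78.1, 39.6, 47.2 and 67.3 in Control at 2 weeks, overlapping. Its counts at 24 weeks were 481, 479, 289, 273 and 257 in dnOGAh-Tg and 120.4, 88.5, 63.5, 95.0 and 65.8 in Control, and the difference was 1.37 ± 0.34 (SE, adjusted p = 0.0395). Aldh18a1, an enzyme of proline synthesis named after its values were seen, had 0.69 ± 0.17 (SE, adjusted p = 0.0452). Fgf21, a hormone of the same response, was too low at 2 weeks to be tested, at 1.13, 3.01, 3.73, 0.976 and 0.00 in dnOGAh-Tg, and at 24 weeks stood at 1.07, 5.09, 3.12, 6.48 and 5.06 in Control and 36.2, 17.8, 7.52, 8.07 and 10.1 in dnOGAh-Tg. Among 20 cytosolic tRNA synthetases, which load amino acids on tRNA, Cars had a difference of 0.64 ± 0.13 (SE, adjusted p = 0.0186) and Aars one of 0.49 ± 0.11 (SE, adjusted p = 0.0288). Aars stood at 2619, 2479, 2550.3, 2478 and 2447 in dnOGAh-Tg at 2 weeks, within Control, and at 3853, 3600.4, 3267, 3303 and 3139 at 24 weeks, above the Control range of 2234 to 2511. Iars was called only without F11, at 0.64 (adjusted p = 0.0448). In that fit the other values were 0.77 for Slc7a5, 1.52 for Asns, 0.75 for Aldh18a1, 0.62 for Cars and 0.50 for Aars, all called. With all libraries and 1 left out in turn, the call stayed in 3 of 20 fits for Aldh18a1, 10 for Asns, 12 for Aars and 15 for Mthfd2. Without the F19 libraries the differences of Mthfd2, Asns and Aars were 1.78, 1.26 and 0.50, with adjusted p-values of 0.07, 0.085 and 0.051. When F11 was left out too, they were 0.0792, 0.0531 and 0.047.

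The promoters of Asns and Aars are shown because both rose at 24 weeks and both hold the letters TGATGNAA, a core of the element that ATF4 binds, in capitals here on either strand. In the 250 bases before the start of each gene in RefSeq for GRCm38.p6, 6 of 24 matched genes of the stress response list and 3 of 13 matched synthetases held it, beside 3.91% of 27025 genes. Of the genes called for the difference whose promoter could be read, only 1 of 3 in the stress response list, Asns, and 1 of 2 synthetases, Aars, held it. The match describes letters and not a bound site, and the motif and the 2 promoters were chosen with the results known.
Asns (chr6:7693210-7693272, minus strand): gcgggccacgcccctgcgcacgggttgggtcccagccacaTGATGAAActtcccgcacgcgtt
Aars (chr8:111033690-111033777, plus strand): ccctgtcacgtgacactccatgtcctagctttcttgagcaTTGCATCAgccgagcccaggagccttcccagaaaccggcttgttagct

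For fatty acid uptake and oxidation 3 of 39 tested genes had a lower difference, beside 0.683% of all genes, and none a higher one, with a median change of -0.54 at 2 weeks without F11 and -0.63 at 24 weeks. Decr1, an enzyme for unsaturated fatty acids, had 12705, 10256, 10689, 10739.5 and 13797 in Control and 11281, 13236, 10185, 8211 and 8789 in dnOGAh-Tg at 2 weeks. In the 24-week table it had 10467, 13560.2, 11059, 13176 and 13009.7 and 6002, 7247, 5724, 5465 and 5189, without overlap, and a difference of -0.87 ± 0.18 (SE, adjusted p = 0.0185). Acaa2, the last thiolase of the cycle, had -0.91 ± 0.20 (SE, adjusted p = 0.0221), and Acadl, an acyl-CoA dehydrogenase, -0.58 ± 0.14 (SE, adjusted p = 0.0414), which became 0.0656 without F11. Tested within each time, 32 of the 39 genes were called lower at 24 weeks, beside 11.1% of all genes, and 25 at 2 weeks without F11, beside 17.7%. Pfkfb1, which sets the level of fructose 2,6-bisphosphate, was the one member of 27 in glycolysis called for the difference, beside 0.683% of all genes, at -1.36 ± 0.31 (SE, adjusted p = 0.0301). Without F11 it missed the threshold, at -1.18 (adjusted p = 0.0626), and its dnOGAh-Tg libraries lay below Control at both times. Ces1d, a carboxylesterase that cleaves stored lipid, had -1.40 ± 0.34 (SE, adjusted p = 0.0375), which became -1.08 (adjusted p = 0.0797) without F11. Esrrb, a nuclear receptor of energy metabolism, had 0.55 ± 0.14 (SE, adjusted p = 0.0474). Decr1, Acaa2 and Esrrb were called without F11 as well, at -0.69, -0.86 and 0.59. With 1 library left out the call stayed in 4 of 20 fits for Acadl, 5 for Esrrb, 6 for Ces1d and 10 for Pfkfb1.

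The nuclear genes of oxidative phosphorylation had a positive median change at 2 weeks and a negative one at 24 weeks. Of 76 tested genes 7 had a lower difference with all libraries and 9 without F11, beside 0.683% and 0.872% of all genes, and none was higher. Tested within each time, 38 were called higher and 1 lower at 2 weeks without F11, beside 16.1% and 17.7% of all genes. At 24 weeks 15 were called lower, beside 11.1% of all genes, and none higher, beside 11.3%. There dnOGAh-Tg 2 had a list median of 0.16, beside -0.60 to -0.26 in the other 4 dnOGAh-Tg libraries and -0.26 to 0.31 in Control. All 76 differences were negative without F11, with a median change of 0.54 at 2 weeks and -0.34 at 24 weeks. Cox5b, a subunit of cytochrome oxidase, had 5562, 5420.5, 5278, 5982 and 15569.7 in Control and 11144, 13801, 15005, 13328 and 17351 in dnOGAh-Tg at 2 weeks. After 24 weeks it stood at 9254, 12531, 9674, 12437 and 10401 and 8809.6, 11347, 7925, 6962 and 8725, and the difference was -1.35 ± 0.32 (SE, adjusted p = 0.0322). At 2 weeks Control 5 lay inside the dnOGAh-Tg range, and the groups overlapped at both times. Ndufa1 and Atp5g2, subunits of complex I and of ATP synthase named after their values were seen, had -1.54 ± 0.38 (SE, adjusted p = 0.0417) and -1.75 ± 0.43 (SE, adjusted p = 0.0383), Cox5a -0.93 ± 0.22 (SE, adjusted p = 0.034), and the electron carrier Cycs -0.92 ± 0.22 (SE, adjusted p = 0.034). Without F11 Cycs missed the threshold, at -0.89 (adjusted p = 0.0539), and the others were called, at -1.47 for Cox5b, -1.67 for Ndufa1, -1.87 for Atp5g2 and -0.99 for Cox5a. With 1 library left out, 7 of 20 fits called Cox5a, 6 Cox5b and Cycs, and 4 Ndufa1 and Atp5g2. The list median in Control 5 of 2 weeks was 0.56 above the Control mean, beside 0.30 to 0.63 in the 3 dnOGAh-Tg libraries without F11. With the Gm37194 split as a covariate, in the fit of all libraries, the differences of Cox5b, Cox5a, Cycs, Ndufa1 and Atp5g2 were -1.16, -0.81, -0.91, -1.47 and -1.47, with adjusted p-values of 0.14 to 0.216. With the length trend removed the adjusted p-values were 0.0072 to 0.04 with all libraries, and without F11 0.0214 to 0.0342 for Cox5b, Cox5a and Ndufa1 but 0.0601 for Cycs and 0.0676 for Atp5g2. The 7 tested protein genes of the mitochondrial genome, which are not spliced and lie on the mitochondrial DNA, had medians of -0.18 and -0.50, and none was called.

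Genes of the cytosolic ribosome were higher at 2 weeks and near Control at 24 weeks. Its 76 genes had a median change of 0.62 at 2 weeks without F11, where 60 were called higher, beside 16.1% of all genes, and of -0.01 at 24 weeks, where 1 was, beside 11.3%. For the difference 2 genes were called lower with all libraries and 3 without F11, beside 0.683% and 0.872%. Rpl29 had 53.7, 79.3, 101, 104 and 299 in Control and 229, 283, 385, 383 and 369 in dnOGAh-Tg at 2 weeks, and 164, 271, 222, 230.0 and 179 and 146, 253, 164, 161 and 139.9 at 24 weeks, with a difference of -1.91 ± 0.43 (SE, adjusted p = 0.0284). Rpl35 had -1.78 ± 0.45 (SE, adjusted p = 0.047), and Rpl27a, named after its values were seen, had -1.21 ± 0.28 (SE, adjusted p = 0.031) without F11. Rpl29 and Rpl35 had -2.14 and -2.05 without F11, both called, and with all libraries and 1 left out Rpl29 stayed called in 12 of 20 fits and Rpl35 in 4. Copies of such genes elsewhere in the genome can share reads, so single values are uncertain. Again Control 5 of 2 weeks stood at the dnOGAh-Tg level, with a list median of 0.38, and at 24 weeks both F19 libraries had the highest medians of their groups, 0.37 in Control and 0.60 in dnOGAh-Tg. Of 76 mitochondrial ribosome genes Mrpl23 was called with all libraries and Mrps25 too without F11, at -0.91 (adjusted p = 0.0325).

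**Figure D5:**
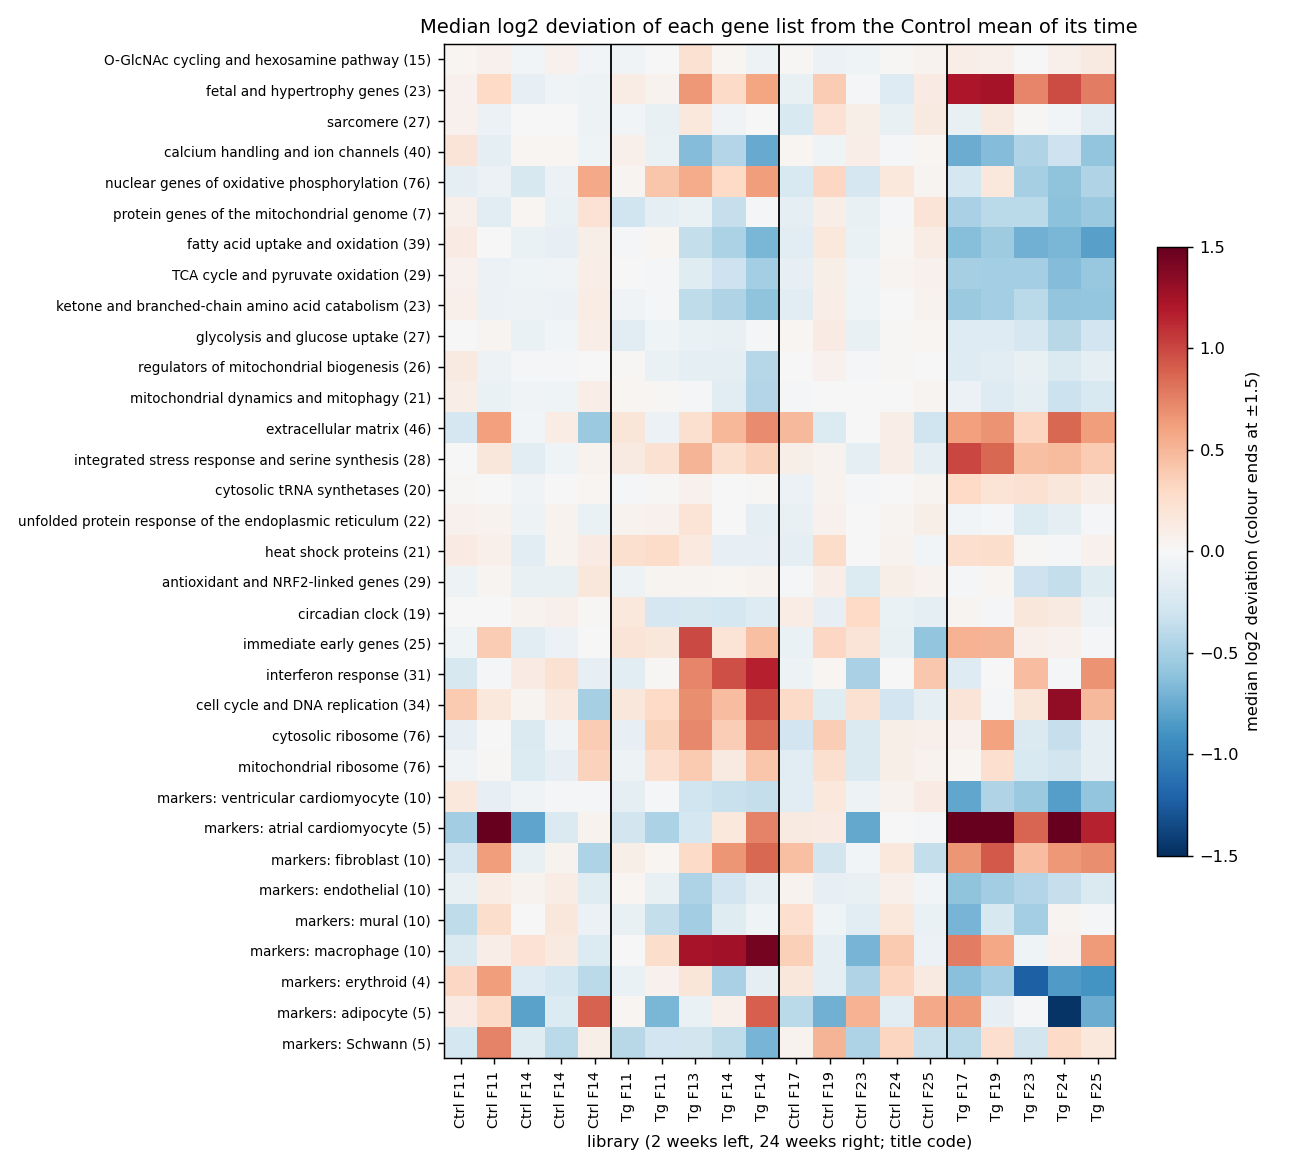
Median log2 deviation from the Control mean of the same time for each gene list (rows, with the number of tested genes in parentheses) in each of 20 libraries (columns, by title code), in colours that end at ±1.5. The fetal list is high in all dnOGAh-Tg libraries of 24 weeks, at 0.73 to 1.24, the interferon list in the 3 dnOGAh-Tg libraries of 2 weeks coded F13 and F14, at 0.73 to 1.16, and the lists of oxidative phosphorylation and ribosome also in Control 5 of 2 weeks.

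As a list, genes induced by interferon were high at 2 weeks and had a median near Control at 24 weeks. This contrast rests on the 3 dnOGAh-Tg libraries of 2 weeks without F11. With all libraries none of 31 tested genes was called for the difference. Without F11, 7 were called lower, beside 0.872% of all genes, Irf7, Isg15, Ifit1, Ifit3, Usp18, Bst2 and Rtp4, and all 31 differences were negative. Tested within each time, 26 of 31 were called higher at 2 weeks without F11, beside 16.1% of all genes, and 3 at 24 weeks, beside 11.3%, and the median change was 0.90 and 0.13. Irf7, a transcription factor that amplifies interferon signals, had 97.4, 103, 138, 147 and 148 in Control, 109 and 89.3 in the F11 libraries and 381, 664 and 728 in the other 3 at 2 weeks. By 24 weeks it had 166, 152, 80.1, 166 and 213 in Control and 166, 193, 179, 172 and 216 in dnOGAh-Tg, which overlapped. Its difference was -1.87 ± 0.34 (SE, adjusted p = 0.0104) without F11 and -0.86 ± 0.62 (SE, adjusted p = 0.552) with all libraries. Isg15, a ubiquitin-like protein (named, like the next 5, after its values were seen), had 46.2, 59.2, 63.8, 79.0 and 48.7 in Control, 40.2 and 83.3 in F11 and 199.7, 277 and 318 in the other 3 at 2 weeks, and 63.9, 63.1, 39.5, 58.3 and 69.6 and 93.3, 99.6, 68.6, 100.2 and 103 at 24 weeks. Its difference was -1.48 ± 0.29 (SE, adjusted p = 0.0146) without F11. Ifit3, which with Ifit1 binds foreign RNA, had 42.4, 52.9, 48.4, 67.2 and 37.3 in Control, 54.3 and 47.2 in F11 and 174, 321 and 351 in the other 3 at 2 weeks, and a difference of -1.56 ± 0.38 (SE, adjusted p = 0.0391). The values were -1.54 ± 0.39 (SE, adjusted p = 0.0448) for Ifit1, -1.29 ± 0.30 (SE, adjusted p = 0.032) for Usp18, which removes Isg15 from proteins, -1.22 ± 0.31 (SE, adjusted p = 0.0468) for Bst2, which tethers virus particles, and -1.01 ± 0.24 (SE, adjusted p = 0.0387) for Rtp4, a chaperone of receptors. With all libraries the differences of these 6 genes were -0.68 to -0.53, with adjusted p-values of 0.446 to 0.696. In the fits without F11 and without 1 further library, Irf7 stayed called in all 18, Isg15 in 17 and the other 5 genes in 5 to 8. The list's members of smallest p with all libraries, Oas2, Rsad2 and Ifi44, were at 0.121, 0.159 and 0.169 without F11. For each of the 7 genes both F11 libraries lay below all 3 of the other dnOGAh-Tg libraries. At 24 weeks Ifit3 had 75.6, 52.9, 39.5, 48.6 and 100 in Control and 104, 89.9, 97.7, 124 and 154 in dnOGAh-Tg. Usp18 had 34.3 to 61.1 and 58.2 to 91.5. For Isg15, Ifit3 and Usp18 most dnOGAh-Tg libraries of 24 weeks thus lay above most of Control. The groups still overlapped, as they did for Irf7, Ifit1, Bst2 and Rtp4.

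A pair of GAAA with 2 bases of any kind between them, the core of the element that interferon-stimulated factors bind, is in capitals in the promoters below, searched on both strands, with overlapping matches joined. Of 24 matched genes of the interferon list 12 held it in the 250 bases before the start, beside 3.46% of 27025 genes in RefSeq for GRCm38.p6, and so did 4 of the 5 called genes whose promoter could be read. These 4 are shown as the genes called for the difference that hold the pair, each with up to 40 bases on either side, and a match says nothing of binding in these hearts.
Isg15 (chr4:156200835-156200936, minus strand): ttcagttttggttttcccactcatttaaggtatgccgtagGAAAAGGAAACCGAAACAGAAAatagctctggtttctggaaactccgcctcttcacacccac
Ifit1 (chr19:34640745-34640853, plus strand): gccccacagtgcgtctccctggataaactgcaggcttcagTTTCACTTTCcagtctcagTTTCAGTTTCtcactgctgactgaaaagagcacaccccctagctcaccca
Ifit3 (chr19:34583333-34583456, plus strand): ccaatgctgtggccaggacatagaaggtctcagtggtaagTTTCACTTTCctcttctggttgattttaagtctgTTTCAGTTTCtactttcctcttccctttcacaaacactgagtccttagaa
Bst2 (chr8:71537547-71537642, minus strand): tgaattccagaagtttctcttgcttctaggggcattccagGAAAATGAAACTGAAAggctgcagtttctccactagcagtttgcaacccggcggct

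Several genes made by macrophages were also higher at 2 weeks. Ccl8, which attracts monocytes, had 3.74, 7.55, 6.59, 10.9 and 6.22 in Control, 7.92 and 11.04 in F11 and 151, 208 and 259.9 in the other 3 at 2 weeks. Its counts at 24 weeks were 87.4, 38.7, 13.5, 57.2 and 44.3 in Control and 325, 192, 78.9, 122 and 216 in dnOGAh-Tg. Its difference was -2.73 ± 0.63 (SE, adjusted p = 0.0314) without F11 and -1.01 ± 1.08 (SE, adjusted p = 0.709) with all libraries, and it was still higher than Control at 24 weeks by 1.99 (adjusted p = 0.00713). Its neighbour and paralog Ccl7 had -2.41 ± 0.57 (SE, adjusted p = 0.0363) without F11. Lgals3, a galectin made by activated macrophages, had 22.5, 51.6, 36.3, 47.2 and 24.9 in Control, 36.2 and 26.1 in F11 and 398, 461 and 459 in the other 3 at 2 weeks, and a difference of -2.42 ± 0.58 (SE, adjusted p = 0.0379). Ctss, a lysosomal protease, and Cd72, a receptor of B cells and macrophages, both named after their values were seen, had -1.78 ± 0.34 (SE, adjusted p = 0.0126) and -2.19 ± 0.46 (SE, adjusted p = 0.024). With all libraries the differences were -1.22 for Ccl7, -0.91 for Lgals3, -1.15 for Ctss and -1.29 for Cd72, and none passed the threshold. In the 18 fits without F11 and 1 further library the call stayed in 18 for Ctss, 17 for Cd72, 7 for Ccl8 and Lgals3 and 6 for Ccl7. Markers of macrophages, 10 in all, moved with them. Their summed count was 5454 to 7465 in Control, 6685 to 7949 in F11 and 15140.3 to 16074 in the other 3 dnOGAh-Tg libraries of 2 weeks. At 24 weeks it was 5823 to 12467 in Control and 8522 to 14879 in dnOGAh-Tg, which overlapped. No marker was at 0, 7 of 10 were called higher at 2 weeks without F11, beside 16.1% of all genes, and 1 at 24 weeks, beside 11.3%, and none was called for the difference. The part of the number of macrophages in the chemokine and interferon results was not tested.

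Of the 188 genes called higher without F11, 73 had the larger change at 2 weeks, downward, against 4 of 154 with all libraries. Their transcripts were long, with a median of 4873 bases beside 3293 over all genes. None was under 1000 bases, beside 6.31% of all genes. Above 6000 bases the median change at 2 weeks without F11 was -0.40, and Control 5 of 2 weeks deviated from the Control mean by -0.30. Rusc2, an adaptor of Rab35 and vesicle traffic, had 2229, 2475, 2035, 2033 and 1759 in Control, 1907 and 1583 in F11 and 1443, 1680.0 and 1297 in the other 3 at 2 weeks. In the 24-week table it had 1792, 1841, 2029.7, 1691 and 1559 in Control and 2642, 2358, 2360.0, 2842 and 2449 in dnOGAh-Tg, all above Control. Its difference was 0.92 ± 0.15 (SE, adjusted p = 0.0035) with all libraries and 1.02 ± 0.15 (SE, adjusted p = 0.00317) without F11, and it was called in both. Extl1, a glycosyltransferase of the exostosin family, had 0.82 ± 0.17 (SE, adjusted p = 0.0196) and 0.99 ± 0.16 (SE, adjusted p = 0.00639). Omd, a keratan sulfate proteoglycan of the matrix named after its values were seen, had 18.7, 52.9, 25.3, 33.6 and 31.1 in Control and 10.3, 9.76 and 13.7 in the 3 libraries at 2 weeks, and 18.1, 23.4, 20.8, 15.1 and 17.7 and 40.6, 67.6, 47.0, 54.5 and 40.3 at 24 weeks. Its difference was 2.71 ± 0.38 (SE, adjusted p = 0.00161). Ogn, a related proteoglycan that lies inside the same larger gene Cenpp on the other strand, had 5044, 4821, 4876, 4956 and 3392 in Control and 2138, 2281 and 2804 in the 3 libraries at 2 weeks, and 3223, 3227, 3498, 3602 and 3024 and 3387, 3273, 2933, 3339 and 3195 at 24 weeks, with a difference of 0.90 ± 0.16 (SE, adjusted p = 0.00997). Acot11, an acyl-CoA thioesterase, had changes of -0.95 at 2 weeks and -0.11 at 24 weeks, with a difference of 0.84 ± 0.15 (SE, adjusted p = 0.0102). Ccdc9b, a coiled-coil protein, had 0.92 ± 0.15 (SE, adjusted p = 0.00639), and the cyclin Ccnd2, which drives entry into the cell cycle, 0.84 ± 0.16 (SE, adjusted p = 0.0112). With all libraries Omd was called too, at 2.17, while Ogn, Acot11, Ccdc9b and Ccnd2 were not, at 0.66, 0.52, 0.67 and 0.65. In the O-GlcNAc cycling and hexosamine list 1 of 15 genes was called lower without F11, beside 0.872% of all genes, and none with all libraries. It was Renbp, an epimerase of N-acetylglucosamine, at -0.97 ± 0.24 (SE, adjusted p = 0.0439), and -0.53 with all libraries.

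For many lists the changes at both times were not told apart gene by gene. None of the tested genes was called in either fit for calcium handling and ion channels (40 genes), the TCA cycle and pyruvate oxidation (29), breakdown of ketones and branched-chain amino acids (23), mitochondrial dynamics (21), extracellular matrix (46), the unfolded protein response (22), heat shock proteins (21), the circadian clock (19) or immediate early genes (25). Calcium handling had medians of -0.59 at 2 weeks without F11 and -0.55 at 24 weeks, where 24 and 23 of 40 genes were called lower, beside 17.7% and 11.1% of all genes. Its gap junction gene Gja1 went from 14447, 10802, 15288, 13778 and 12678 in Control to 7948, 8006 and 6897 in the 3 dnOGAh-Tg libraries at 2 weeks, and from 15256, 18304, 14020.4, 16611 and 16374 to 5939, 7619, 7378, 3984 and 6611 at 24 weeks. Its difference was -0.90 ± 0.26 (SE, adjusted p = 0.0867). Extracellular matrix had medians of 0.49 and 0.64, with 10 and 27 of 46 genes called higher, beside 16.1% and 11.3% of all genes. Fmod, a collagen-binding proteoglycan, had the smallest p of that list at 3.86 ± 1.34 (SE, adjusted p = 0.155), and a single Control library of 2 weeks, Control 2, stood at 1440.4 beside 6.24 to 99.5 in the rest. The clock gene Per3 had -0.71 and -0.16, and the synthetase Vars, the one of smallest p in its list that was not called, -0.22 and 0.14. Sln could not be tested at both times, since at 2 weeks too few libraries reached a count of 10. It had 4.99, 1112, 6.59, 0.908 and 60.1 in Control and 7.35, 17.1, 3.73, 6.83 and 3.42 in dnOGAh-Tg at 2 weeks. After 24 weeks it stood at 3.20, 4.07, 12.5, 11.9 and 2.53 in Control and 322, 540.0, 519, 1358 and 355 in dnOGAh-Tg. The groups did not overlap at 24 weeks, while at 2 weeks the highest values were those of Control 2 and Control 5. The 5 atrial markers that could be tested, Nppa among them, had median changes of 0.19 at 2 weeks without F11 and 1.91 at 24 weeks. None of them was called for the difference. Bmp10 was at 0 in every dnOGAh-Tg library of 2 weeks, and the part of atrial tissue in these values was not tested.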

How the data were processed

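Bulk RNA-seq libraries of left ventricle, 5 in each of 4 groups taken from the labels, were analysed. For each time the authors deposited a table of normalized signal, that is, of read counts divided by the size factor of the library. In every column 100% of values above 0 were whole multiples of 1 step to within 0.01 of a read, and the count tests used these recovered reads. Per the submitters' processing notes reads were handled with STAR 2.7.3a, Trim Galore 0.6.6 and cutadapt 2.6 on the build GRCm39, and DESeq2 and R 4.0.3 are also named. Counter, annotation release and strand setting were not given in the sources used here.

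Genes of both tables were joined by identifier. On log2(value + 1), limma-trend (version 3.58.1 of limma under R 4.3.3) gave the main two-sided test in 1 fit of the 4 groups with Benjamini-Hochberg adjustment at 0.05. Changes within a time came from a fit of that table alone. The tables were normalized separately, so no level was compared across times. Intervals are standard errors over libraries and cover no other error. The alternatives used edgeR 4.0.16, DESeq2 1.42.0, other pseudocounts, filters and scalings, blocks, and left-out libraries. The fits were tested on simulated data. Length and GC content came from an annotation of GRCm38, joined by identifier for 99.8% of genes.

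The members and lists were chosen with earlier results of these data known. Genes were named by a rule: the 8 most positive and 8 most negative called differences with all libraries, at a group mean of at least 50 and 6 of each without F11, the 6 of smallest p with the larger change at 2 weeks, the 8 largest changes alike at both times, up to 3 per list and 16 given genes. Genes outside the rule are said to be named after seeing their values.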

Additional observations from a re-analysis of the deposited data

Results flagged for a closer look

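In 41 of 424 groups of 5 libraries, taken over the 106 genes named, 1 library lay far from the other 4 by a test of gaps that chance passes in about 1 of 20 groups, so about 21.2 would be expected. The values are normalized counts, they gather in a few libraries, and their cause was not tested. Control 5 of 2 weeks stood apart, high for Strit1 at 836, Mrpl23 at 228, Fgf21 at 5.18, Cox5b at 15569.7, Cox5a at 38316, Cycs at 5121, Rpl29 at 299, Rpl35 at 1319, Tnnc1 at 105283, Rpl27a at 1382, Mrps25 at 2873, Ndufa1 at 7589 and Atp5g2 at 1294, and low for Ogn at 3392. Control 2 of 2 weeks stood apart, high for Adamts8 at 57.9, Vgll2 at 198, Nppa at 11414, Mlana at 42.8, Sln at 1112, Slc7a5 at 303, Fmod at 1440.4 and Nox4 at 74.3. dnOGAh-Tg 2 of 24 weeks stood apart, high for Mrpl23 at 187, Rpl29 at 253, Rpl35 at 1558, Rpl27a at 1787, Mrps25 at 2124 and Ndufa1 at 5740.0, and low for Acot11 at 817. For Control 1 of 24 weeks the values were Postn at 3636. For Control 2 of 24 weeks the values were Strit1 at 1947. For Control 3 of 24 weeks the values were Lrrn1 at 61.4, Padi2 at 235 and Extl1 at 2739. For Control 5 of 24 weeks the values were Rsad2 at 641. For Control 1 of 2 weeks the values were Ptchd3 at 107. For dnOGAh-Tg 1 of 24 weeks the values were Vgll2 at 4450.4. For dnOGAh-Tg 3 of 24 weeks the values were Isg15 at 68.6. For dnOGAh-Tg 4 of 24 weeks the values were Sln at 1358. For dnOGAh-Tg 5 of 24 weeks the values were Cd72 at 84.5. For dnOGAh-Tg 2 of 2 weeks the values were Sln at 17.1.

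For 79 of the named genes the effect of the transgene differed between the times by the test of the difference itself (limma-trend, adjusted p under 0.05), here in log2 units. With all libraries it was higher at 24 weeks for Ryr3 4.02, Lrrn1 4.02, Gnal 3.87, Adamts8 3.69, Mlph 3.54, Padi2 3.41, Dlgap1 3.31, Vgll2 3.31, Adamts20 3.28, Syn2 2.98, Chd5 2.93 and Drd1 2.76. Smaller positive differences were found for Amot 2.47, Myom3 2.33, Nox4 2.33, Grin2c 2.24, Omd 2.17, Npr3 2.16, Mthfd2 1.94, Acta1 1.85, Sel1l3 1.57, P3h2 1.40, Asns 1.37 and Slc22a4 1.31. The least of them belonged to Gnao1 1.28, Camk2b 1.28, Hbegf 1.18, Xirp2 1.13, Mapk12 1.10, Slc7a5 0.94, Rusc2 0.92, Extl1 0.82, Aldh18a1 0.69, Cars 0.64, Esrrb 0.55 and Aars 0.49. It was lower at 24 weeks for Tmprss13 -3.16, Cyp2b10 -3.10, Strit1 -2.85, Tnip3 -2.50, Eprn -2.43, Mrpl23 -2.37, Ptchd3 -2.25, Npy4r -2.11, Rpl29 -1.91, Rpl35 -1.78, Atp5g2 -1.75 and Hopx -1.73. Less negative differences were found for Myh7b -1.56, Ndufa1 -1.54, Ces1d -1.40, Pfkfb1 -1.36, Cox5b -1.35, Tnnc1 -1.19, Cox5a -0.93, Cycs -0.92, Acaa2 -0.91, Decr1 -0.87 and Acadl -0.58. Called without the F11 libraries alone were Ccl8 -2.73, Lgals3 -2.42, Ccl7 -2.41, Cd72 -2.19, Irf7 -1.87, Ctss -1.78, Ifit3 -1.56, Ifit1 -1.54, Isg15 -1.48, Usp18 -1.29, Bst2 -1.22, Rpl27a -1.21, Rtp4 -1.01, Renbp -0.97, Mrps25 -0.91, Iars 0.64, Ccnd2 0.84, Acot11 0.84, Ogn 0.90 and Ccdc9b 0.92.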

How the results depend on the processing

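Of 4248 values of called genes under the alternatives, 2167 with all libraries and 2081 without the F11 dnOGAh-Tg libraries, none reversed its direction, while 404 and 475 no longer passed the threshold. The number of genes called for the difference moved more. From 252 with all libraries it went to 531 with DESeq2, 34 without all F11 libraries, Control included, and 40 at an adjusted p under 0.01. Among alternatives added after seeing the data it was 477 with the length and GC trend removed, 51 with the Gm37194 split as a covariate and 131 without the F19 libraries. From 313 without the F11 dnOGAh-Tg libraries it went to 893 with DESeq2, 29 at an adjusted p under 0.01 and 38 with the Gm37194 covariate. With 1 library left out it ranged from 100 (without dnOGAh-Tg 1 of 24 weeks) to 683 (without Control 5 of 2 weeks), and without F11 from 60 (without dnOGAh-Tg 5 of 2 weeks) to 1403 (again without Control 5). At 24 weeks the count of 3296 was 1814 at an adjusted p under 0.01 and 1842 when a change of at least 1.5-fold was also asked. At 2 weeks 0 genes became 850 with DESeq2, 3241 without all F11 libraries, 4929 without the F11 dnOGAh-Tg libraries and 10 with the Gm37194 covariate. With 1 library left out the count at 2 weeks went from 0 to 3366 (without dnOGAh-Tg 1, coded F11), and it was 447 without Control 5. The cause of these shifts was not tested.

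At 24 weeks the Control and dnOGAh-Tg libraries of the same number also share a title code, whose meaning the labels do not give, and at 2 weeks they do so for numbers 1, 2, 4 and 5. The numbers were not taken as pairs, since the correlation of same-numbered deviations ran from -0.22 to 0.39 at 2 weeks and from -0.16 to 0.56 at 24 weeks. With the replicate number as a block 422 genes were called for the difference and 241 at 2 weeks. With the title code as a block 232 genes were called for the difference, 3921 at 24 weeks and 0 at 2 weeks, where DESeq2 without a block called 850 and 3551 had an unadjusted p under 0.05.

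Values that reversed were of genes not called in that fit. In the fit of all libraries they were Nppa -0.0082 with edgeR, Nppa -0.0045 with DESeq2, Nmrk2 0.25 with the title code as a block, Ankrd2 -0.18, Nppa -1.20, Oga -0.31, Mlana -1.17, Atp2a2 0.051, Cpt1b 0.37 and Postn -0.43 without all F11 libraries, Nppa -0.82, Oga -0.39, Mlana -0.33, Atp2a2 0.033, Cpt1b 0.26 and Postn -0.20 without the F11 dnOGAh-Tg libraries, Nppa -0.037 with the Gm37194 covariate. With 1 library left out the values ranged from -0.32 to 0.092 for Cpt1b, -0.81 to 0.27 for Nmrk2 and -0.15 to 0.77 for Nppa. In the fit without F11 they were Mlana 0.037 with a pseudocount of 5, Pdk4 0.11 with quantile normalization, Mlana 0.44, Atp2a2 -0.019 and Pdk4 0.041 with edgeR, Mlana 0.51, Atp2a2 -0.0051 and Pdk4 0.054 with DESeq2, Mlana 0.058 and Atp2a2 -0.17 with the length and GC trend removed, Ankrd2 -0.061 and Pdk4 0.047 without the F19 libraries. With 1 library left out the values ranged from -0.17 to 0.27 for Ankrd2, -0.26 to 0.21 for Atp2a2, -0.039 to 0.44 for Cpt1b, -1.10 to 0.098 for Mlana, -0.26 to 0.39 for Pdk4 and -0.44 to 0.15 for Postn.

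The spread at both times limits these results. With all libraries the count of 252 became 100 without dnOGAh-Tg 1 of 24 weeks and 406 without Control 3 of 24 weeks. At 2 weeks the F11 dnOGAh-Tg libraries lay within Control by the medians of the genes called at 24 weeks. Single genes could differ, as Nppb did at 8123 and 15570 beside 4024 to 6711 in Control. Control 5 of 2 weeks shared a length trend with dnOGAh-Tg. With 5 libraries per group the standard error of a difference had a median of 0.23 on the log2 scale. A call took a difference of several standard errors, so for a typical gene differences well above 0.23 could be missed. Depth limited genes under 10 counts, which were not tested.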

Other observations

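A few more genes that stayed called in every fit with a library left out concern signalling, transport and matrix, and were chosen after their values were seen. Camk2b, the beta chain of calcium/calmodulin-dependent kinase II, had normalized counts of 668, 679, 708, 676 and 751 in Control and 727, 692, 701, 852 and 606 in dnOGAh-Tg at 2 weeks. At 24 weeks it had 555, 753, 919.6, 491 and 576 and 1780.1, 1396, 1819, 1656 and 1367, which did not overlap, and a difference between times of 1.28 ± 0.20 (SE, adjusted p = 0.00211). Mapk12, the gamma form of p38 kinase, stood at 488 to 685 in Control and 1472 to 1722 in dnOGAh-Tg at 24 weeks and had a difference of 1.10 ± 0.22 (SE, adjusted p = 0.0135). Gnao1, the alpha chain of the G protein Go, had 1.28 ± 0.18 (SE, adjusted p = 0.000534), Drd1, a dopamine receptor that couples to the olfactory G protein Gnal in the brain, 2.76 ± 0.47 (SE, adjusted p = 0.00453), and Grin2c, a subunit of NMDA receptors, 2.24 ± 0.37 (SE, adjusted p = 0.0035). Drd1 stood at 10.2 to 22.4 in Control and 108 to 126 in dnOGAh-Tg at 24 weeks, and at 5.70 to 28.0 in dnOGAh-Tg at 2 weeks.

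Slc22a4, a transporter of ergothioneine, stood at 127, 156, 98.8, 119.9 and 133 in Control and 401, 302, 229, 292 and 274 in dnOGAh-Tg at 24 weeks. At 2 weeks it stood at 117, 148, 136, 131 and 106 in dnOGAh-Tg, within the Control range of 115 to 155 but for 1 library, and its difference was 1.31 ± 0.21 (SE, adjusted p = 0.0028). P3h2, which hydroxylates proline of collagen, had 1.40 ± 0.22 (SE, adjusted p = 0.0027), and Sel1l3 had 1.57 ± 0.26 (SE, adjusted p = 0.00371). In the fit without F11 the differences of these genes were 1.27 for Camk2b, 0.79 for Mapk12, 1.32 for Gnao1, 2.85 for Drd1, 2.58 for Grin2c, 1.35 for Slc22a4, 1.36 for P3h2 and 1.64 for Sel1l3, and all passed the threshold.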
